A study of Zea mays with 4 samples.

Results

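The lipoxygenase family of maize was followed in leaf 6 of the inbred line B73 under low and high nitrogen supply. The family was taken as 10 genes chosen by name, LOX1, LOX3, LOX4, LOX5, LOX6, LOX8, LOX9, LOX10, LOX11 and LOX12, out of 43110 distinct loci in the table. Each of the 10 names was found at 1 locus. Plants were grown in hydroculture and received 0.04 mM nitrogen (low nitrogen) or 4 mM nitrogen (high nitrogen), with 2 libraries per treatment and 4 libraries in all. Per the methods, RNA came from the mature part of a leaf that was still expanding. All plants started on the high nitrogen solution, and those of the low nitrogen group changed solution as seedlings. The labels number the libraries R1 and R2 within each treatment, and the study's supplement calls them biological replicates. No source used here says how many plants went into each. The p-values thus set the difference between treatments against variation between libraries.

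Lipoxygenases are iron enzymes that add oxygen to linoleic and linolenic acid, the polyunsaturated fatty acids of plant membranes. The 9-LOX type oxygenates carbon 9 of the chain and feeds defence oxylipins such as the death acids of maize. The 13-LOX type oxygenates carbon 13 inside plastids. Its products go to jasmonate through allene oxide synthase (AOS), allene oxide cyclase (AOC) and 12-oxo-phytodienoate reductase (OPR), or to green leaf volatiles through hydroperoxide lyase. In leaves the family is best known for its response to wounding, chewing insects and fungi. LOX1, LOX3, LOX4, LOX5 and LOX12 were counted as 9-LOX, and LOX8, LOX9, LOX10 and LOX11 as 13-LOX. LOX1 was placed with the 9-LOX genes by sequence type, although its enzyme can oxygenate either carbon. LOX6 stood apart, because its protein is an atypical plastid lipoxygenase that cleaves fatty acid hydroperoxides rather than making them.

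Expression was deposited as FPKM, a measure scaled by transcript length and by the number of reads in the library, so that levels can be set side by side between genes. In the 4 libraries the FPKM of all loci summed to between 1043303 and 1798408, with both low nitrogen sums below both high nitrogen sums. The lowest values gave an approximate depth of 1.46 and 1.74 for the low nitrogen libraries and 1.15 for high nitrogen replicate 2, with high nitrogen replicate 1 set to 1. The leaf mesophyll markers were 3 loci, PEP1 and 2 named PPDK. In the deposited FPKM all 3 were lower in both low nitrogen libraries, as were 27.2% of the loci tested below. Their sums were 13639 and 10536 FPKM in low nitrogen and 37756 and 25848 FPKM in high nitrogen. Of the PPDK loci, GRMZM2G097457 was the less abundant, at 31.4 and 19.1 FPKM in low nitrogen and 109 and 103 FPKM in high nitrogen. The bundle sheath marker RCA1 was likewise lower, at 1236 and 875 FPKM in low nitrogen and 1709 and 2260 FPKM in high nitrogen. Values under other scalings of the libraries are not given for these markers. Their part in the results below was not tested, and in RNA from a mixed tissue fewer cells of a type and less RNA per cell cannot be told apart. The meristem genes KN1, LG3 and LG4 lay between 0 and 0.0501 FPKM, and the tassel gene MS26 between 0.0511 and 0.662 FPKM. For the test limma was run on log2(FPKM + 1) across 22889 loci, those reaching 1 FPKM in 2 or more libraries, with adjustment across all of them. Fold changes on this scale understate the change of genes with low FPKM. Permuting 2 libraries against 2 exactly gives no two-sided p smaller than 0.33 for one locus, and the limma p-values depend on a variance estimate drawn from many loci.

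Both low nitrogen libraries exceeded both high nitrogen libraries at the 9-LOX genes LOX1, LOX5 and LOX12 and the 13-LOX genes LOX8 and LOX9. In the deposited FPKM they lay below both at LOX6 and LOX10. LOX10 made up most of the family's FPKM in every library, and its direction turned with the scaling of the libraries, being lower in low nitrogen in the deposited FPKM and higher when libraries were set to equal sums or quantile normalized. None of the differences passed the test over all loci. LOX3 did not reach the filter. Of the other 9 genes limma called 0, a call being an adjusted p under 0.05 together with a log2 fold change beyond 1 or -1, against 0.537% of all tested loci (0.0481% higher and 0.489% lower in low nitrogen). Their adjusted p-values ran from 0.143 to 0.765. At an unadjusted p under 0.05 there were 5 of the 9, against 20.1% of all tested loci. The sizes of these 5 differences depended on single libraries, though none changed direction. With 1 library left out the lowest log2 fold change was 1.48 at LOX1, 1.22 at LOX5, 0.54 at LOX9 and 0.85 at LOX12. LOX6 ran from -1.69 to -0.99. With no filter the count was 3 of 10, against 5015 of 31737 loci in all. Of the 5, 4 were higher in low nitrogen (LOX1, LOX5, LOX9 and LOX12), against 9.29% of all tested loci, and 1 was lower (LOX6), against 10.8%. Both low nitrogen libraries lay above both high nitrogen libraries at 5 of the 9 genes, against 26.6% of tested loci, and below both at 2, against 27.2%. The median log2 fold change over the 9 genes was 0.47, and over all tested loci it was -0.01. A gene could pass the filter through the treatment in which it was high, so these counts describe the tested genes alone.

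**Figure D1:**
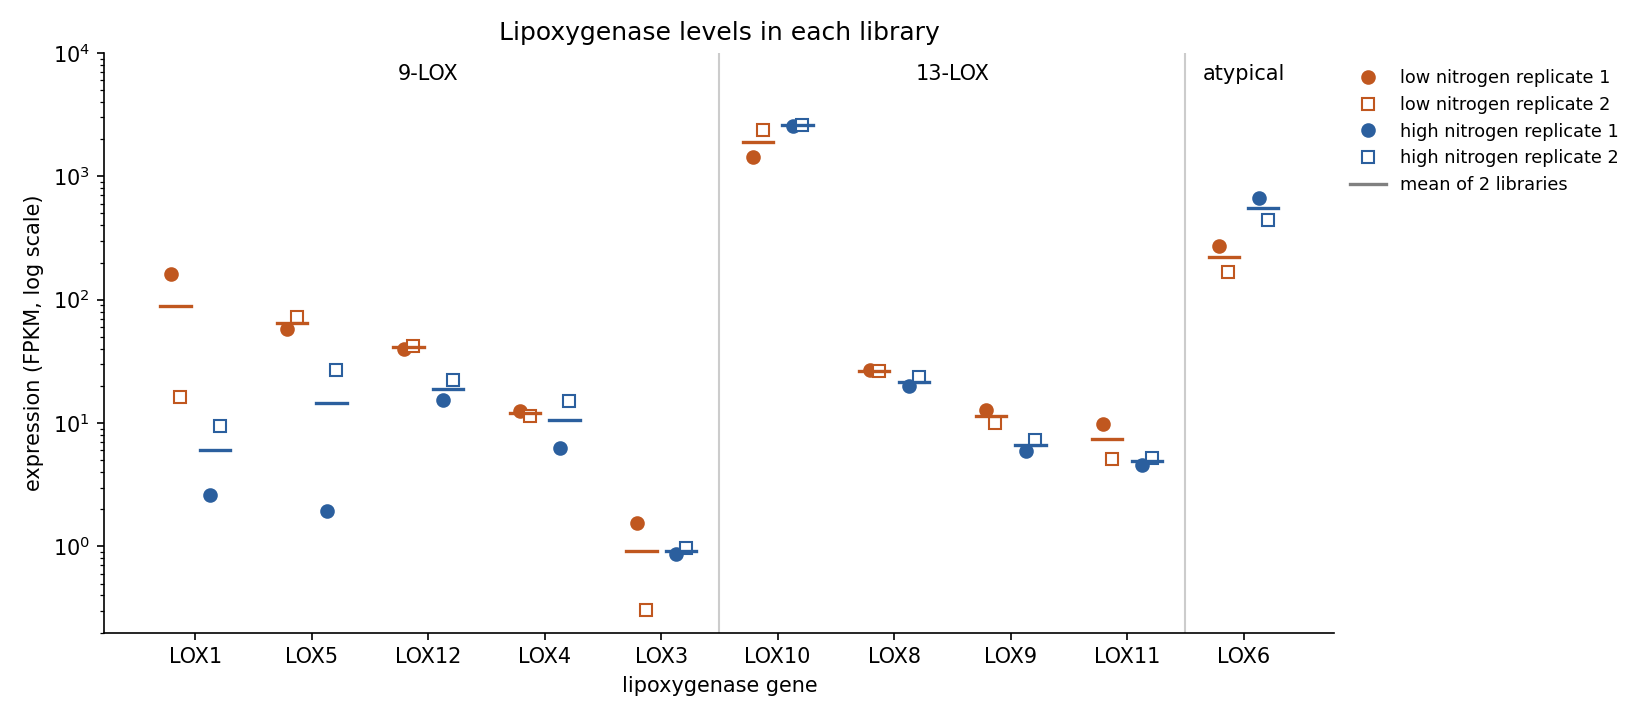
Expression of the 10 lipoxygenase genes in each library, in FPKM on a log axis, with low nitrogen left of high nitrogen for each gene and a bar at the mean of the 2 libraries. LOX10 sits between 1434 and 2630 FPKM and LOX6 between 167 and 669 FPKM, above all other members in every library.

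LOX10, the 13-LOX that supplies green leaf volatiles in maize leaves, was by far the most expressed member. Its locus, GRMZM2G015419, occupies bases 234164919 to 234168681 of chromosome 4 in B73 RefGen_v3. LOX10 reached 1434 and 2372 FPKM in low nitrogen and 2569 and 2630 FPKM in high nitrogen. Both low nitrogen libraries were thus lower, but replicate 2 of low nitrogen came close to the high nitrogen pair. The log2 fold change was -0.49 (95% interval -1.37 to 0.39, limma adjusted p = 0.470). LOX10 held 70.7% and 87.1% of the family's FPKM in low nitrogen and 77.9% and 82.7% in high nitrogen. Among all 43110 loci it ranked 95 and 51 in low nitrogen and 90 and 89 in high nitrogen, and these ranks overlap between the treatments. With all libraries scaled to equal FPKM sums its log2 fold change was 0.21, and under quantile normalization 0.44, so the direction of LOX10 turned with the scaling.

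LOX6 (GRMZM2G040095, chromosome 2, bases 4192152 to 4196263), the atypical plastid member, came next to LOX10 in level. LOX6 had 273 and 167 FPKM in low nitrogen and 669 and 439 FPKM in high nitrogen. The treatments did not overlap, and the mean was 2.52-fold higher in high nitrogen. The log2 fold change was -1.34 (95% interval -2.30 to -0.38, limma adjusted p = 0.167), and 4.63% of tested loci had a lower one. Leaving out single libraries gave values from -1.69 to -0.99, and at equal FPKM sums it was -0.63. LOX10 exceeded LOX6 by 5.26-fold and 14.2-fold in low nitrogen and by 3.84-fold and 6.00-fold in high nitrogen, ranges that overlap.

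LOX1 (GRMZM2G156861), which is known in maize seedlings for its induction by wounding and methyl jasmonate, had the highest log2 fold change of the family. Its expression was 161 and 16.1 FPKM in low nitrogen and 2.60 and 9.52 FPKM in high nitrogen. Both low nitrogen libraries lay above both high nitrogen libraries, but low nitrogen replicate 1 was 9.96-fold above replicate 2. The gap between these replicates, 3.24 on the log2 scale, was wider than at 99.6% of tested loci. The log2 fold change was 3.10 (standard error 1.16, 95% interval 0.12 to 6.08, limma adjusted p = 0.237). It was 1.48 without low nitrogen replicate 1, 4.72 without low nitrogen replicate 2, 2.32 without high nitrogen replicate 1 and 3.87 without high nitrogen replicate 2. The LOX1 locus spans 143463 bases on chromosome 3, from 168738873 to 168882335, whereas the other 9 loci span 3763 to 16428 bases. In the RefSeq gene order LOX2 lies next to LOX1 with 0 genes between them, and LOX2 was not matched to a locus of its own here. Whether fragments of LOX2 are part of the LOX1 value was not tested.

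LOX5 (GRMZM2G102760, chromosome 5, bases 12285656 to 12290564), a 9-LOX linked to defence against insects and pathogens, also had both low nitrogen libraries above both high nitrogen libraries. LOX5 was measured at 57.8 and 71.8 FPKM in low nitrogen and 1.94 and 27.1 FPKM in high nitrogen. Here the low nitrogen pair was close, and the high nitrogen pair differed 14.0-fold, a gap, replicate 1 minus replicate 2, of -3.26 on the log2 scale, whose size exceeded that at 99.5% of tested loci. The log2 fold change was 2.85 (standard error 1.06, 95% interval 0.12 to 5.57, limma adjusted p = 0.236). Without high nitrogen replicate 1 it was 1.22, and without high nitrogen replicate 2 it was 4.47.

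LOX12 (GRMZM2G106748), a 9-LOX known from resistance to Fusarium, showed the smallest spread among the members with a large difference. It had 40.0 and 42.0 FPKM in low nitrogen and 15.4 and 22.3 FPKM in high nitrogen, means of 41.0 ± 1.37 and 18.9 ± 4.90 FPKM (SD, n = 2 each). The treatments did not overlap, and the mean was 2.17-fold higher in low nitrogen. On the log2 scale the LOX12 fold change was 1.10 (standard error 0.26, 95% interval 0.42 to 1.78), and its limma adjusted p of 0.143 was the lowest of the family. Without single libraries the LOX12 value ran from 0.85 to 1.36. The locus, on chromosome 3 from 93841884 to 93848791, carries the second name GRMZM2G106730 with the same 4 values, so these gene models cannot be told apart.

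LOX3 and LOX4, a tandem pair of 9-LOX genes with closely similar sequence, showed no separation of the treatments. They lie 3892 bases apart on chromosome 1, LOX3 (GRMZM2G109130) from 264266381 to 264271190 and LOX4 (GRMZM2G109056) from 264275083 to 264291510. LOX4 had 12.6 and 11.4 FPKM in low nitrogen and 6.27 and 15.1 FPKM in high nitrogen. Both low nitrogen values lay between the high nitrogen values. The log2 fold change of LOX4 was 0.27 (95% interval -0.82 to 1.35, limma adjusted p = 0.765), and without high nitrogen replicate 1 it was -0.31. LOX3, whose loss alters susceptibility to fungi and nematodes, had 1.53 and 0.303 FPKM in low nitrogen and 0.874 and 0.969 FPKM in high nitrogen. These values are too low for the filter, and LOX3 was not tested. LOX4 was 8.21-fold and 37.8-fold above LOX3 in low nitrogen and 7.18-fold and 15.5-fold above it in high nitrogen. The authors' estimates could have split shared fragments between these copies, and this was not tested.

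Among the 13-LOX genes other than LOX10, all 3 had a higher mean in low nitrogen, by 0.28 to 0.71 on the log2 scale in the deposited FPKM. At equal FPKM sums, where the median of all tested loci was 0.59, LOX8 was at 0.96, LOX9 at 1.34 and LOX11 at 1.07. LOX8, the TASSELSEED1 gene that makes jasmonate for tassel sex determination, is GRMZM2G104843 on chromosome 2, bases 45820703 to 45825277. LOX8 had 26.9 and 26.2 FPKM in low nitrogen and 20.0 and 23.4 FPKM in high nitrogen. The treatments did not overlap, but the log2 fold change was 0.28 (95% interval -0.28 to 0.85, limma adjusted p = 0.520). LOX9 (GRMZM2G017616, chromosome 1, bases 16573827 to 16580722) had 12.9 and 9.99 FPKM in low nitrogen and 5.97 and 7.23 FPKM in high nitrogen. It was the 13-LOX with the highest log2 fold change, 0.71 (95% interval 0.07 to 1.34, limma adjusted p = 0.217), and its treatments did not overlap. LOX11, the close relative of LOX10, is GRMZM2G009479 on chromosome 5, bases 123239668 to 123243697. LOX11 had 9.83 and 5.15 FPKM in low nitrogen and 4.54 and 5.25 FPKM in high nitrogen. Low nitrogen replicate 2 lay between the high nitrogen values, and the log2 fold change was 0.47 (95% interval -0.41 to 1.35, limma adjusted p = 0.490). LOX10 exceeded LOX11 by 146-fold and 461-fold in low nitrogen and by 566-fold and 501-fold in high nitrogen. LOX7, a 13-LOX gene outside the 10 and the near copy of LOX8, had 0.605 and 0.353 FPKM in low nitrogen and 0.349 and 0.268 FPKM in high nitrogen, and was not tested.

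**Figure D2:**
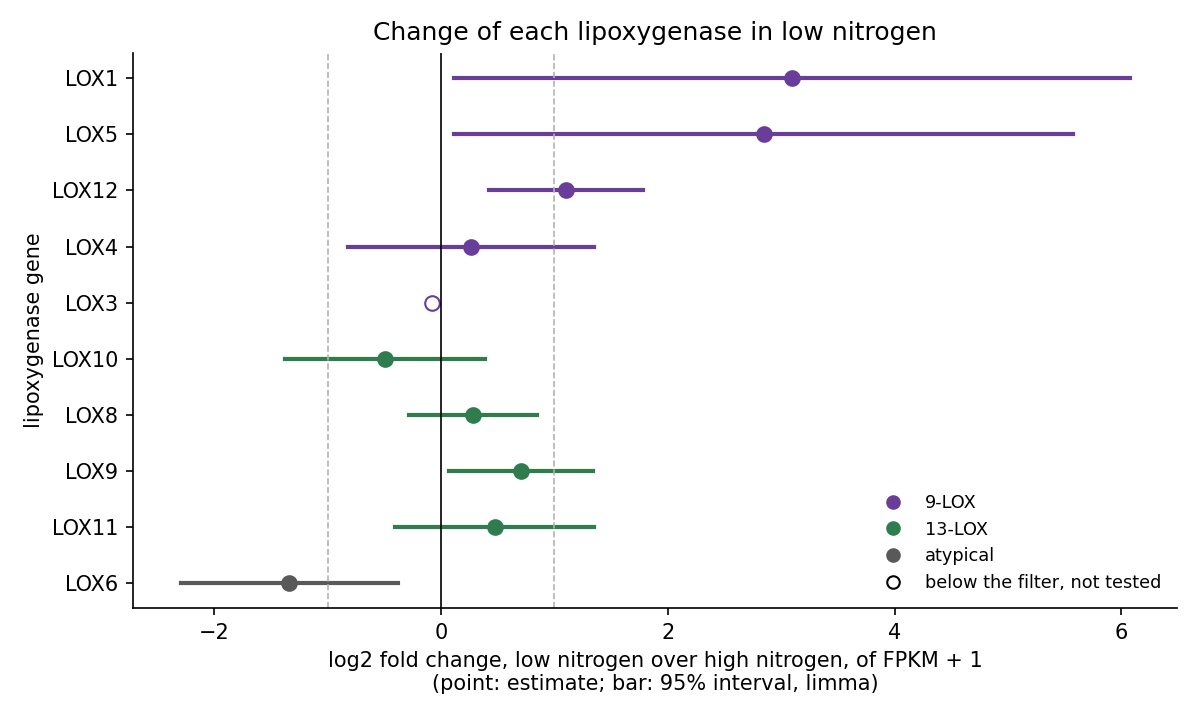
Log2 fold change of FPKM + 1, low nitrogen over high nitrogen, for each lipoxygenase, with the 95% interval from limma as a bar and dashed lines at a log2 fold change of 1 and -1. The intervals of LOX1, LOX5, LOX9 and LOX12 lie above 0 and that of LOX6 below 0, before any adjustment, and LOX3 was not tested.

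The order of the levels differed between the treatments below LOX10 and LOX6. In low nitrogen LOX1, LOX5 and LOX12 followed with means of 88.5, 64.8 and 41.0 FPKM, and then LOX8 with 26.5, LOX4 with 12.01, LOX9 with 11.4 and LOX11 with 7.49 FPKM. The place of LOX1 rested on low nitrogen replicate 1, because in replicate 2 its 16.1 FPKM lay below LOX5, LOX12 and LOX8, so that its range spanned all 3. LOX4 and LOX9 also overlapped, and the other neighbours did not. In high nitrogen LOX8 came next with 21.7 FPKM, before LOX12 with 18.9, LOX5 with 14.5, LOX4 with 10.7, LOX9 with 6.60, LOX1 with 6.06 and LOX11 with 4.89 FPKM. Each of these neighbours overlapped the next, so the high nitrogen order was not resolved between neighbours. LOX8 and LOX12 nevertheless lay above LOX4, LOX9, LOX1 and LOX11 in both high nitrogen libraries. LOX3 was last in both treatments.

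The 9-LOX genes together were higher in both low nitrogen libraries, while the 13-LOX sum followed LOX10. The 5 9-LOX genes summed to 273 and 142 FPKM in low nitrogen and 27.1 and 75.0 FPKM in high nitrogen. The low nitrogen sums were both higher, and without LOX1 they were 112 and 125 FPKM in low nitrogen against 24.5 and 65.5 FPKM in high nitrogen. The 4 13-LOX genes summed to 1484 and 2413 FPKM in low nitrogen and 2599 and 2666 FPKM in high nitrogen. Nearly all of this was LOX10, and the other 3 summed to 49.5 and 41.3 FPKM in low nitrogen and 30.5 and 35.9 FPKM in high nitrogen. The 9-LOX genes thus held 13.4% and 5.20% of the family's FPKM in low nitrogen, against 0.822% and 2.36% in high nitrogen.

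**Figure D3:**
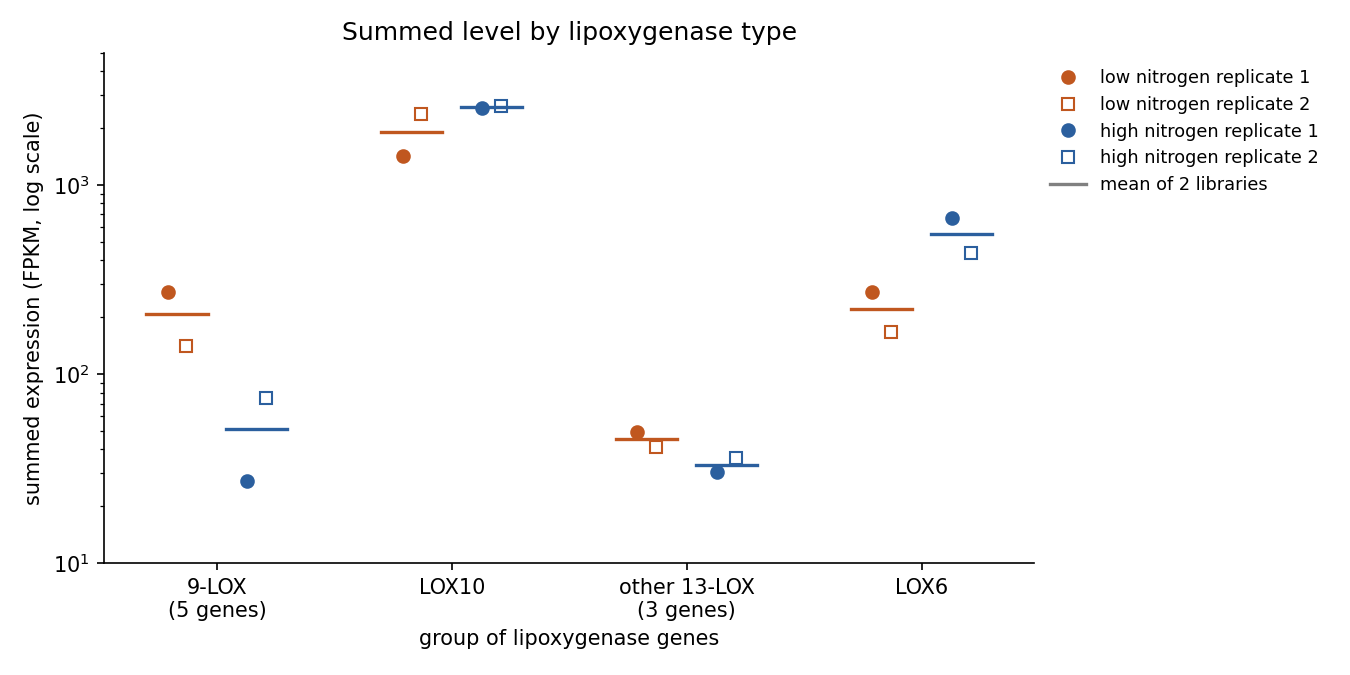
Summed FPKM per library, on a log axis, of the 5 9-LOX genes, LOX10, the 3 other 13-LOX genes and LOX6, with low nitrogen left of high nitrogen and bars at the mean. The 9-LOX sums are 273 and 142 FPKM in low nitrogen and 27.1 and 75.0 FPKM in high nitrogen, while LOX10 and LOX6 lie lower in low nitrogen.

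On the log2 scale the ratio of the 9-LOX sum to the 13-LOX sum was -2.44 and -4.09 in low nitrogen and -6.58 and -5.15 in high nitrogen. It was thus higher by 2.60 in low nitrogen, with a spread of 1.09 between replicates (pooled SD, n = 2 each). The difference was 1.78 without low nitrogen replicate 1, 3.42 without low nitrogen replicate 2, 1.88 without high nitrogen replicate 1 and 3.32 without high nitrogen replicate 2. Under quantile normalization it was 1.82. Leaving out LOX10 gave a difference of 1.67, and leaving out LOX1 gave 2.04. This ratio within a library does not depend on a factor applied to a whole library. By type, the median log2 fold change came to 1.97 for the 4 tested 9-LOX genes, from 0.27 to 3.10, and 0.38 for the 4 13-LOX genes, from -0.49 to 0.71. The difference between the types was described over 2 libraries against 2, with no test.

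The high nitrogen replicates lay far apart at LOX5, LOX1 and LOX4. High nitrogen replicate 1 was lower than replicate 2 at 8 of the 9 tested members, the exception being LOX6, against 54.3% of all tested loci. On the log2 scale replicate 1 minus replicate 2 was -3.26 at LOX5, -1.55 at LOX1 and -1.14 at LOX4. At LOX10 it was -0.03, the smallest gap of the family. The low nitrogen pair had a gap wider than 1 at LOX1 alone among the 10 genes.

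**Figure D4:**
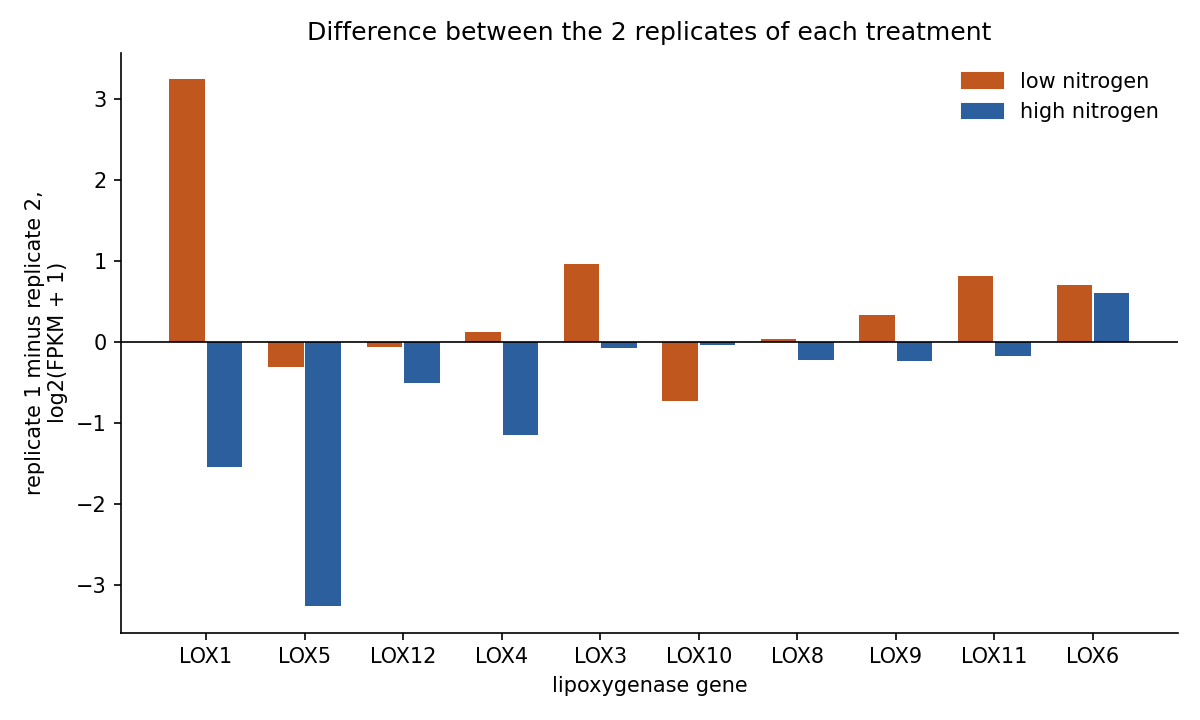
Replicate 1 minus replicate 2 on log2(FPKM + 1) for each lipoxygenase, in low nitrogen and in high nitrogen, where a bar below 0 means a lower value in replicate 1. The largest bars are LOX1 in low nitrogen at 3.24 and LOX5 in high nitrogen at -3.26, and the LOX10 bar in high nitrogen is -0.03.

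The AOS, AOC and OPR families, which include the enzymes that turn 13-LOX products into jasmonate, were a list of 13 genes found by symbol. In low nitrogen both libraries lay above both high nitrogen libraries at 11 of the 12 tested genes, against 26.6% of all tested loci, and below at 1, against 27.2%. At an unadjusted p under 0.05, 8 were higher, against 9.29% of all tested loci, and 1 was lower, against 10.8%. The count of higher genes moved with the setting, and with a pseudocount of 0.1 it was 5 of the 12. After adjustment limma called 0, against 0.537% of all tested loci. The median log2 fold change of the list was 1.38. AOS2 had 54.4 and 41.1 FPKM in low nitrogen and 2.13 and 16.0 FPKM in high nitrogen (log2 fold change 2.73, limma adjusted p = 0.180). AOC2 had 64.9 and 53.1 FPKM in low nitrogen and 22.3 and 27.3 FPKM in high nitrogen (log2 fold change 1.22, limma adjusted p = 0.123). OPR7 and OPR8, the pair needed for jasmonate synthesis in maize, had log2 fold changes of 0.76 and 0.43. Both 95% intervals included 0, at -0.09 to 1.61 and -0.25 to 1.10 (limma adjusted p = 0.284 and 0.422). OPR6 was the single gene that went the other way, with 26.6 and 30.0 FPKM in low nitrogen and 146 and 115 FPKM in high nitrogen. Its log2 fold change was -2.16 (95% interval -2.79 to -1.53), and its limma adjusted p of 0.0550 was just above the threshold.

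AOS1, AOS3, OPR1, OPR2, OPR3 and OPR5 had log2 fold changes of 1.57, 0.93, 1.92, 2.70, 1.55 and 1.61, in this order, with limma adjusted p between 0.159 and 0.243, and AOC1 had 0.31. AOS4 was below the filter. OPR1 was the most expressed of these at 178 and 412 FPKM in low nitrogen and 43.1 and 116 FPKM in high nitrogen. Here too high nitrogen replicate 1 was lower than replicate 2, at 11 of the 12 tested genes, against 54.3% of all tested loci. Without that library the median log2 fold change of the list was 1.01 in place of 1.38, with 11 of 12 still above 0. The median was 1.10 without low nitrogen replicate 1, 1.24 without low nitrogen replicate 2 and 1.64 without high nitrogen replicate 2.

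**Figure D5:**
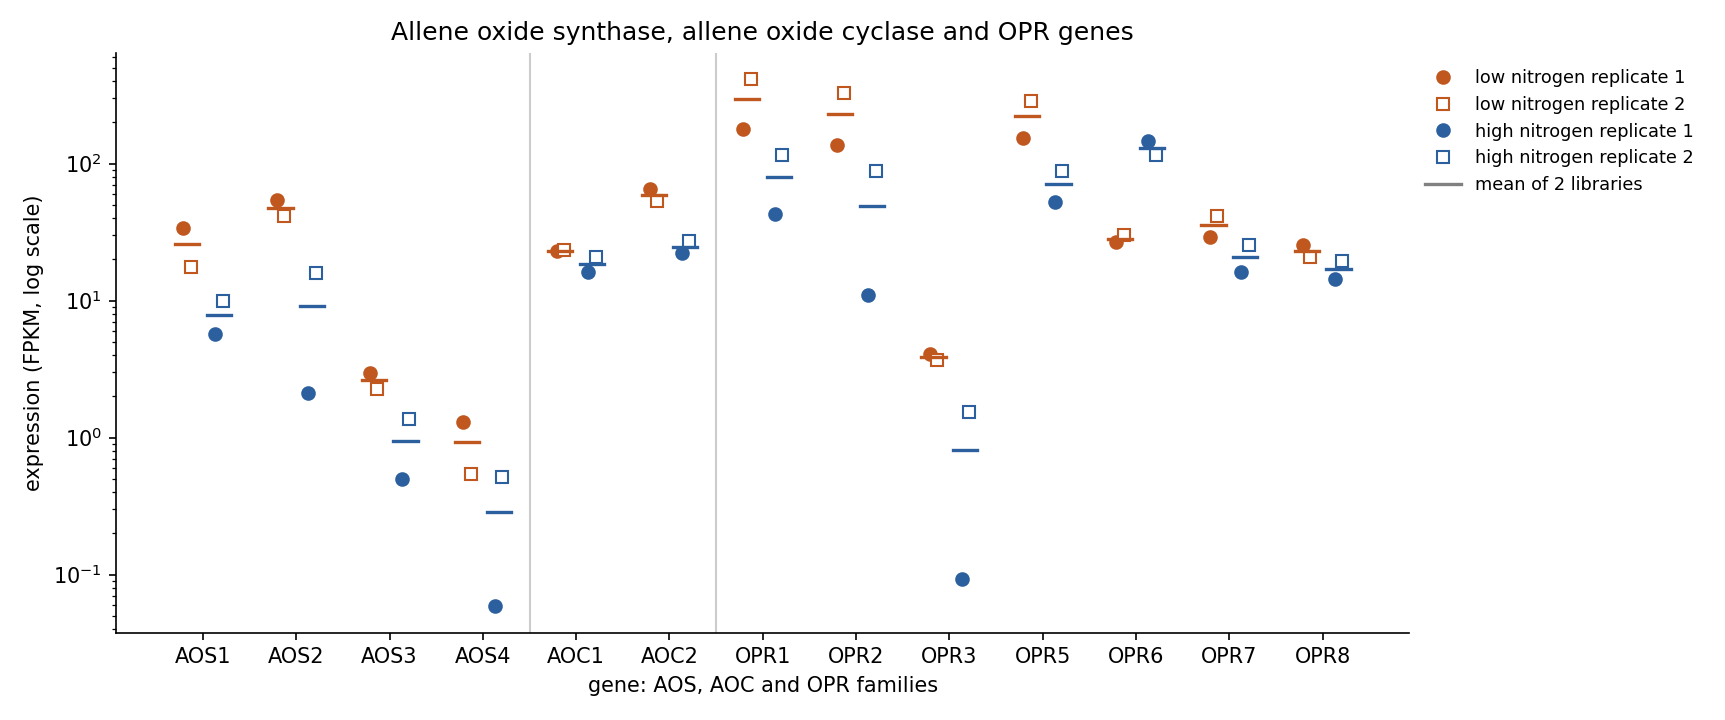
Expression of 13 AOS, AOC and OPR genes in each library, in FPKM on a log axis, with low nitrogen left of high nitrogen and bars at the mean of 2 libraries. OPR6 is the single tested gene with both low nitrogen libraries, 26.6 and 30.0 FPKM, below both high nitrogen libraries, and high nitrogen replicate 1 is the lowest library for most of the others.

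The list of fatty acid desaturases, which make the substrate of lipoxygenases, held 5 genes. In the deposited FPKM 4 had both low nitrogen libraries below both high nitrogen libraries, against 27.2% of all tested loci. The median log2 fold change of the 5 was -0.90, and it moved with the scaling, to -0.20 at equal FPKM sums. By limma 0 were called, against 0.537% of all tested loci, and 2 were lower at an unadjusted p under 0.05, against 10.8%. With 1 library left out the median of the 5 ran from -1.40 to -0.41. The plastid desaturase FAD6 had 34.4 and 34.1 FPKM in low nitrogen and 101 and 94.96 FPKM in high nitrogen (log2 fold change -1.49, limma adjusted p = 0.0779). The most expressed of them was GRMZM2G056252, named FAD2, which had 716 and 496 FPKM in low nitrogen and 1677 and 1678 FPKM in high nitrogen (log2 fold change -1.49, limma adjusted p = 0.119). The list's highest log2 fold change, 0.36, was that of GRMZM2G064701, also named FAD2. In the green leaf volatile branch, the alcohol dehydrogenases ADH1 and ADH2 had log2 fold changes of 0.34 and 0.44, and both overlapped between the treatments.

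Of 22 jasmonate signalling genes, mostly TIFY genes, which include the JAZ repressors, 20 were tested. At 10 of them both low nitrogen libraries lay above both high nitrogen libraries, against 26.6% of all tested loci. At 0 they lay below, against 27.2%. The median over the 20 was 0.44 on the log2 scale. By limma 0 were called, against 0.537% of all tested loci. At an unadjusted p under 0.05, 3 of the 20 were higher, a share near the 9.29% of all tested loci. TIFY24, the most expressed, had 299 and 292 FPKM in low nitrogen and 188 and 255 FPKM in high nitrogen. The largest difference was at TIFY2 with 22.2 and 21.6 FPKM in low nitrogen and 1.59 and 7.87 FPKM in high nitrogen (log2 fold change 2.26, limma adjusted p = 0.159). The lowest log2 fold change was -0.33, at TIFY16. High nitrogen replicate 1 was lower than replicate 2 at 18 of the 20, against 54.3% of all tested loci. The median log2 fold change over the 20 was 0.16 without high nitrogen replicate 1 and 0.64 without high nitrogen replicate 2. The part of replicate 1 in the differences above was not tested further.

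The tested loci with a RefSeq symbol whose pattern over the 4 libraries was closest to that of LOX1 and LOX10 were also listed. LOX1 and LOX10 are the 9-LOX and the 13-LOX with the highest mean over all libraries. LOX1 held that place through low nitrogen replicate 1 alone, and in each of the other libraries LOX5 or LOX12 was the highest 9-LOX. Likeness was the Euclidean distance between log2(FPKM + 1) profiles, each centred on its own mean. GRMZM2G125441, at a distance of 0.39 from LOX1, had 42.5 and 3.65 FPKM in low nitrogen and 0.354 and 1.998 FPKM in high nitrogen. It was followed by GRMZM2G051185 at 0.52 and GRMZM5G800014 at 0.87, and all 3 shared the high value of low nitrogen replicate 1. For LOX10 the closest were GRMZM2G137176, GRMZM2G035922 and GRMZM2G121843 at distances of 0.05, 0.05 and 0.06. Of the loci with a symbol, 1855 lay within 0.5 of LOX10 and 1 within 0.5 of LOX1. Distances around LOX10 and around LOX1 are not comparable, since the LOX10 profile spans a much smaller range.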

How the data were processed

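RNA from leaf 6 of B73 plants was sequenced in 2 low nitrogen and 2 high nitrogen libraries. Per the methods, the authors used TopHat2 for alignment (B73 RefGen_v3), StringTie for assembly and edgeR for their own test. The versions are not given in the sources used here. The authors deposited FPKM values for 44070 rows, which are 43110 loci, since 865 loci carry several names, and each locus was used once. FPKM holds no fragment counts, so no counting error is given, and relative depth was read from the ratios of the lowest values.

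Log2(FPKM + 1) was computed, loci reaching 1 FPKM in 2 or more libraries entered the test, and limma 3.58.1 in R 4.3.3 was fitted with an intensity trend and no block, with Benjamini-Hochberg adjustment over 22889 loci. The fit was tested on simulated data. Tables and figures were made with Python 3.11.15, pandas 2.3.3 and matplotlib 3.10.9. Positions are those of the deposited table, counted from 1.

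The members, the lists and the types were chosen with earlier results of these data known. Named are all 10 members and the tested genes of the AOS, AOC and OPR list. Of each other list the most expressed and the extreme genes are named. The 3 tested loci with a RefSeq symbol nearest to the 9-LOX and the 13-LOX of highest mean FPKM are named as well. LOX7, FAD6 and the marker genes were named beside them. Symbols and gene order, and no coordinates, were taken from the RefSeq table of assembly Zm-B73-REFERENCE-NAM-5.0. In it 18726 of the 39206 annotated names were found. HPL1, OPR4 and LOX2 had no matching name, and no gene was found under the ACX, JAR, COI, NINJA or JMT stems. Alternatives were another pseudocount, other filters, 2 scalings, a replicate block, a fit with no trend, calls on adjusted p alone, omission of single libraries and other groupings of the types. Leaving LOX10 out of the 13-LOX sum was added after seeing the data. So were all repeats of the unadjusted counts and medians of the pathway lists.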

Additional observations from a re-analysis of the deposited data

How the results depend on the processing

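No lipoxygenase was called under any of the 13 alternatives, which kept the direction of the members except as follows. LOX10 turned to 0.44 under quantile normalization and 0.21 at equal FPKM sums, a setting that moved the median log2 fold change of all loci to 0.59. At equal sums LOX6, LOX8, LOX9, LOX11 and LOX12 were at -0.63, 0.96, 1.34, 1.07 and 1.78. LOX4 turned to -0.31 without high nitrogen replicate 1, the lowest of -0.31 to 0.84 with 1 library left out. The labels pair the replicates by number only, and same-numbered deviations had a correlation of 0.203 across loci. With the replicate block 617 of all tested loci were called in place of 123, and 5 pathway genes in place of 0: OPR1, OPR2, OPR5, OPR6 and FAD6. Over all loci the count was 23 with no filter beyond a value above 0, 78 with values above 0 in all libraries, 60 at equal FPKM sums, and 0 to 16 with 1 library left out. No pathway gene was called in any of these without the block. At an unadjusted p under 0.05 the higher jasmonate signalling genes numbered 3, against 13 at equal FPKM sums, 6 under quantile normalization and 0 to 4 with 1 library left out. For the desaturases the median was -0.20 at equal FPKM sums in place of -0.90, with 1 gene higher and 2 lower. The 9-LOX to 13-LOX difference was 1.31 as a difference of medians, against 2.60 for sums. No member name had several loci, so adding loci up gave no other value. LOX3 was tested with no filter alone, at -0.08 (limma adjusted p = 0.925). Without counts, what depth limits was not tested.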
